A study of Mus musculus with 12 samples.

Results

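Cortex of adult C57Bl/6 mice whose Grin1 gene always carries exon 5 (genotype label Grin1-exon5+/+, KI) was compared with cortex of the wild types labelled for that same knock-in line (KI_WT). Members are the 3 KI and 3 KI_WT libraries, chosen by their mutation label, so 6 of the 12 poly(A) RNA-seq libraries of the study. The other 6 are an exon 5 knockout (Grin1-exon5-/-, KO, 3 libraries) and its own wild types (KO_WT, 3 libraries), also adult and C57Bl/6, and they enter here for the shared estimate of spread and for the difference between the lines. Each library has an animal number of its own. The labels give no treatment, sex or litter, and no allele other than that of Grin1.

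NMDA receptors are glutamate-gated calcium channels of excitatory synapses that open when glutamate is bound by GluN2 subunits and glycine or D-serine by GluN1 or GluN3 subunits. Grin1 encodes GluN1, the obligatory subunit, and its transcript is spliced at several cassettes. Exon 5 adds a short, charged segment to the extracellular amino-terminal domain of GluN1. Receptors holding that segment are known to be less inhibited by protons and zinc, to be less potentiated by polyamines and to deactivate faster. Neurons of adult forebrain mostly skip the exon, while some hindbrain and thalamic neurons include it.

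The inserted segment is shown first, because it is the designed difference between the genotypes. Exon 5 lies at chr2:25311343-25311405 (GRCm38, minus strand), is coding throughout, and is present in 4 of 8 annotated coding transcripts of Grin1 (chromosome 2, 25291181 to 25319187). In the annotation it is the fourth exon of the transcripts that hold it. Below, capitals mark the cassette and lower case marks 30 bases of the flanking exons, read 5′ to 3′ along the transcript from GENCODE M21.

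Grin1 with exon 5: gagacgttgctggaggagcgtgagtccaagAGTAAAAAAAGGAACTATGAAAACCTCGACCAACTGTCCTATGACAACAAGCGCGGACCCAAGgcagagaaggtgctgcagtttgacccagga
Grin1 without exon 5: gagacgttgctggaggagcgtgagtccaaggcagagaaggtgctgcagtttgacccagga

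The cassette has 63 bases, which is 21 codons with a remainder of 0, so that the reading frame is kept with or without it. Of these codons 4 encode lysine, 2 encode arginine and 3 encode an acidic residue. It makes up 1.47% of the longest coding transcript of 4276 bases. A gene-level count cannot resolve it, so the counts check neither the inclusion of exon 5 nor the genotype labels.

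The 6 libraries held 31790970 to 34999887 counts in genes and 22201 to 22768 detected genes. Markers of cortical layers were measured in full (12 of 12 upper-layer, 6 of 6 layer 4 and 12 of 12 deep-layer genes passed the count filter). Markers of regions next to cortex differed between libraries: KI_WT 3 had the highest olfactory bulb marker level (2.62 above the mean of the 12 libraries on the log2 scale) and a low choroid plexus level (-2.36), and limma's quality weights gave it the lowest weight (0.464). Xist, which female cells transcribe, was at 648, 856 and 750 CPM in KI 2, KI 3 and KI_WT 1 and at 0.119 to 0.611 in the other 3, where the Y-linked Ddx3y was at 90.7 to 108 CPM. Levels are TMM-scaled CPM (counts relative to library size), and log2 fold changes are KI over KI_WT. Unless stated, SE and p-values rest on the spread between animals within the 4 groups, so over all 12 libraries.

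Grin1 was at the same level in both groups within their spread. KI libraries held 334, 294 and 305 CPM and KI_WT libraries 333, 299 and 327 CPM, in the order of their numbers, and the groups overlapped. On the log2 scale KI was at -0.04 relative to KI_WT (SE 0.10; interval at 95% from -0.26 to 0.18; edgeR quasi-likelihood fit, Benjamini-Hochberg adjusted p = 0.953), and in RPKM the sign turned (0.01). Permuting the samples exactly and two-sided gave p = 0.8, where 0.1 is the smallest that 3 against 3 allows. The interval lies within a 1.5-fold change in either direction.

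Among the NMDA receptor subunits, 0 of 6 tested genes passed an adjusted p of 0.05 in edgeR's test or an unadjusted p of 0.05 (over all genes 3.04% were higher and 3.92% lower at the latter level). Per kilobase, as deposited RPKM, Grin1 was the most abundant at 32.8 ± 1.80 in KI and 32.5 ± 2.2 in KI_WT (SD, n = 3). Grin2b, a GluN2 subunit prominent in forebrain, followed at 19.9 ± 3.26 RPKM in KI and 18.1 ± 3.76 in KI_WT. Grin2c was at 8.30 ± 0.529 and 8.30 ± 0.836 RPKM. Next came Grin3a, which encodes a glycine-binding GluN3 subunit, then Grin2a, the GluN2 subunit that increases as cortex matures, and Grin2d, which is enriched in interneurons. They were at 4.26 ± 0.298, 3.08 ± 1.05 and 2.13 ± 0.368 RPKM in KI and at 3.55 ± 0.404, 3.33 ± 0.659 and 1.81 ± 0.252 in KI_WT. The libraries' ranges of Grin3a and Grin2a overlapped in both groups and those of Grin2a and Grin2d in KI, so the order of these neighbours is not resolved there.

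Grin3a was the subunit gene with the smallest p. It was at 53.6, 51.6 and 48.1 CPM in KI and at 39.6, 44.8 and 47.9 CPM in KI_WT, a log2 fold change of 0.21 (SE 0.11; adjusted p = 0.73 by edgeR's test). The lowest KI library lay just above the highest KI_WT library on this scale, whereas in RPKM KI 3 (3.92) lay below KI_WT 3 (3.95). Grin2a had the widest spread, with 18.0, 9.50 and 20.8 CPM in KI and 22.1, 15.2 and 16.4 CPM in KI_WT; its log2 fold change of -0.15 has a 95% interval from -1.08 to 0.78. For Grin2b, Grin2c and Grin2d the log2 fold changes were 0.08, -0.05 and 0.18, and the groups overlapped in each. Grin3b had 50 counts over the 6 libraries and was not tested.

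**Figure D1:**
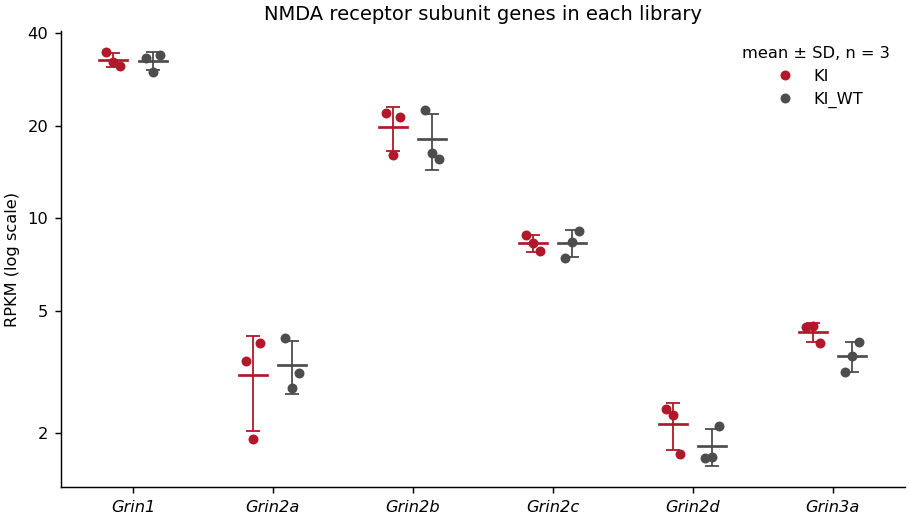
RPKM (log scale) of the 6 tested NMDA receptor subunit genes in each KI and KI_WT library, with horizontal lines at the mean and bars of ± 1 SD (n = 3). Grin1 sits between 30.03 and 34.8 RPKM in all 6 libraries, and the groups overlap in every gene on this scale.

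Genes that set the ligands and modulators of the receptor near the exon 5 segment were then examined by role. Srr makes D-serine, the co-agonist at GluN1, and was at 97.1, 78.7 and 106 CPM in KI and at 122, 110 and 116 CPM in KI_WT. All 3 KI libraries were lower, with a log2 fold change of -0.30 (SE 0.12, unadjusted p = 0.0248), and the knockout line had -0.28 in the same direction. Over the whole co-agonist list, which covers serine and glycine synthesis, cleavage and transport, 10 of 14 members had a higher mean and 4 a lower one, with a median of 0.04; with the GC correction described below 6 were higher.

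Polyamine genes had 10 of 16 members higher and 0 at an unadjusted p under 0.05, with a median log2 fold change of 0.07; without KI 1 the split was 8 to 8. Oaz2, an antizyme that restrains polyamine synthesis, was at 165, 178 and 152 CPM in KI and at 149, 150 and 150 CPM in KI_WT (0.14, SE 0.066). Of zinc transporters and metallothioneins 10 members were higher and 10 lower. At an unadjusted p under 0.05 2 were higher and 1 lower, against 3.04% and 3.92% of all genes, and 0 were with the GC correction. For Slc39a3, a zinc importer, KI over KI_WT was 0.17 (SE 0.065), and for Slc30a4, which moves zinc out of the cytosol, -0.25 (SE 0.10). Transporters of acid and base split 10 to 11, and the smallest p there belonged to Slc9a9, an endosomal sodium-proton exchanger, at 18.4, 18.4 and 19.7 CPM in KI against 23.3, 22.4 and 24.6 in KI_WT (-0.31, SE 0.12). None of these genes passed the adjusted threshold in edgeR's test, where the smallest adjusted p over all genes was 0.705.

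Other glutamate receptor genes had small differences too. Gria2, the AMPA receptor subunit that blocks calcium entry, was at 990, 984 and 974 CPM in KI and at 1185, 1196 and 1221 CPM in KI_WT. These groups lay apart with little spread inside each, and the log2 fold change was -0.29 (SE 0.089, unadjusted p = 0.00709). The list of 11 AMPA, kainate and delta subunits had 5 higher and 6 lower members. Gria2 was the only one at an unadjusted p under 0.05, where 3.92% of all genes were lower. With the GC correction described below 0 of the 11 reached that level. Among 7 metabotropic receptors, Grm2, a presynaptic autoreceptor, was lower (-0.39, SE 0.17) at that level. Of 12 auxiliary subunits of AMPA receptors 0 reached it.

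Downstream of the receptor, scaffolds of the postsynaptic density had 14 of 21 members lower with a median of -0.12 (-0.04 without KI 2), and 0 at an unadjusted p under 0.05. The same count was 0 of 30 for kinases and phosphatases of receptor signalling, where Cdk5 (0.14) and the phosphatase Ptpn5 (0.25) had the smallest p. In that list 11 members were higher and 19 lower (median -0.03), while in RPKM 17 were higher and 13 lower. CREB and neurotrophin genes had 11 of 12 members lower, by small amounts (median -0.09); without KI 2 it was 7 of 12 (median -0.02) and in RPKM 6 of 12. Immediate early genes, which neuronal activity induces, had 12 members higher and 10 lower, with a median between -0.21 (without KI_WT 2) and 0.18 (without KI_WT 3). Npas4, one of the most activity-specific of them, was at 16.2, 7.64 and 7.71 CPM in KI and 15.7, 18.7 and 19.9 CPM in KI_WT (-0.78, SE 0.26, unadjusted p = 0.0116). KI 1 stood with the wild types there, and only KI 2 and KI 3 were low.

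Over all 17441 genes tested, 0 (0%) passed an adjusted p of 0.05 between KI and KI_WT (edgeR quasi-likelihood fit, adjusted by Benjamini-Hochberg). DESeq2 called 4 genes, each with an adjusted p of 0.0361 (Fign, Lypd1, Gbx2 and Atp5g2), limma voom called 0, and a fit of these 6 libraries alone called Abhd12b (adjusted p = 0.0199, edgeR). Without adjustment 531 genes (3.04%) were higher and 683 (3.92%) lower at p under 0.05. About 872 in all would be at that level if no gene differed. Instead of 1214 in all there were 727 without KI 1 and 614 without KI 2. With a term for Y-linked genes, which were low in KI 2, KI 3 and KI_WT 1 of these 6, there were 892. The 3 KI libraries lay above the 3 KI_WT libraries for 1103 genes (6.32%) and below them for 1023 (5.87%). In the authors' RPKM scaling, tested with limma on log2(RPKM + 0.1), the balance was 927 higher to 295 lower, with the median of all genes at 0.05 instead of -0.0054. For 83.5% of genes the 95% interval of the log2 fold change lay within a 2-fold change, and for 64.9% within a 1.5-fold change.

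**Figure D2:**
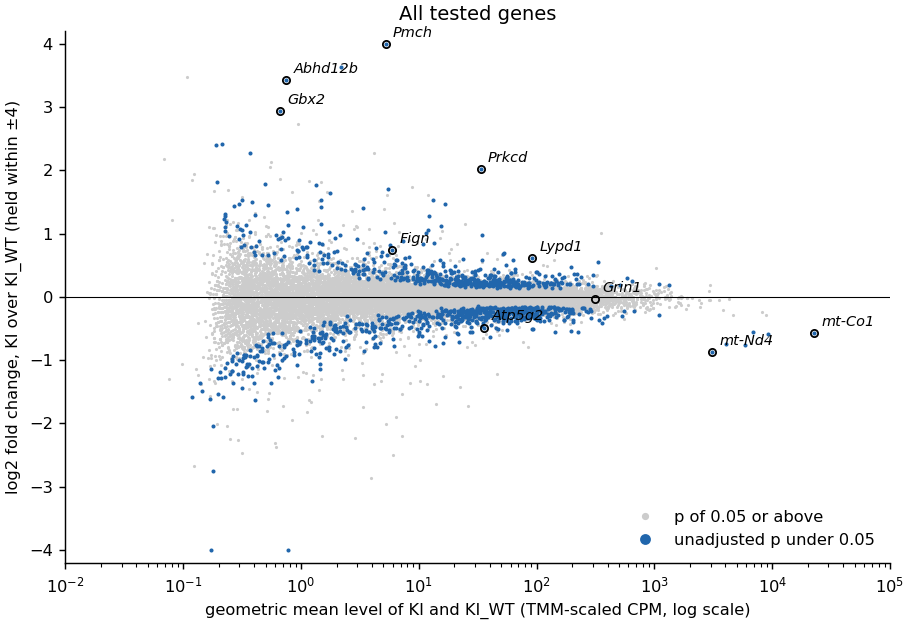
Log2 fold change of KI over KI_WT against mean level (TMM-scaled CPM, log axis) for the 17441 tested genes, with genes at an unadjusted p under 0.05 in blue and values beyond 4 drawn at 4. None passed the adjusted threshold in edgeR's test; the named genes include Lypd1 at 0.61 and mt-Co1 at -0.57.

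The genes with the smallest p are given as values that did not pass. Fign (chromosome 2, 63971507 to 64098038), a microtubule-severing ATPase, was at 8.77, 7.02 and 7.24 CPM in KI and at 3.91, 4.55 and 5.26 CPM in KI_WT, a log2 fold change of 0.75 (SE 0.15). Lypd1 (chromosome 1, 125867622 to 125913101), whose product is a prototoxin that dampens nicotinic acetylcholine receptors, was at 128, 104 and 110 CPM in KI and at 74.0, 82.4 and 66.5 CPM in KI_WT (0.61, SE 0.13, a 1.53-fold ratio). Both were higher in every KI library. In the knockout line Lypd1 had -0.29, and the difference between the lines was 0.91 (95% interval 0.52 to 1.29; adjusted p = 0.918, edgeR).

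Further genes on the higher side carry varied functions. Srrt, which couples the nuclear cap to RNA processing and microRNA maturation, was at 76.8, 78.8 and 75.0 CPM in KI against 64.9, 63.8 and 62.8 in KI_WT (0.27, SE 0.061). Zdhhc14, a palmitoyltransferase (0.40), Fez2 (0.31), the transporter Slco3a1 (0.37), the lipid raft protein Rftn1 (0.63) and Gmds, which makes GDP-fucose (0.41), followed in order of p. Oxtr, the oxytocin receptor, was at 10.7, 9.30 and 10.5 CPM in KI and 6.85, 6.27 and 8.24 CPM in KI_WT (0.51, SE 0.13). Tmed3, a cargo receptor of the early secretory pathway (0.35), and Mlec, an endoplasmic reticulum lectin (0.36), were also among the 15. Myl2 (1.502) was below 1 CPM in all 6 libraries, 1 model is known by a clone name, and Gbx2 and Olig1 are given with the marker lists.

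On the lower side Atp5g2 came first. This nuclear gene (chromosome 15, 102662864 to 102672352) encodes a subunit of the membrane ring of ATP synthase and was at 33.4, 27.6 and 30.1 CPM in KI and at 38.7, 45.9 and 42.8 CPM in KI_WT. Its log2 fold change of -0.48 (SE 0.097) stood against 0.21 in the knockout line, a difference of -0.69 (95% interval -0.99 to -0.40; adjusted p = 0.918, edgeR). Apoo, part of the complex that shapes mitochondrial cristae, was at 33.9, 33.8 and 34.5 CPM in KI against 41.0, 41.9 and 40.02 in KI_WT (-0.27, SE 0.062). Mpc1, a subunit of the mitochondrial pyruvate carrier, was at -0.34 (SE 0.085). All libraries of KI lay below all of KI_WT for these 3 genes.

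Zinc-finger genes made up 3 of the 15 lower genes with the smallest p: Zfp788 (-0.38), Zfp654 (-0.41) and Zfp958 (-0.49). Kcnt2, a sodium-activated potassium channel, had -0.45 and Nyap2, an adaptor of phosphoinositide 3-kinase signalling, -0.38. Btf3l4, Zdhhc13, Rsu1 and Pkd2l2 had -0.27, -0.32, -0.37 and -0.90, and 3 models are known by a clone or provisional name. Over all genes whose symbol begins with Zfp and a number, a group chosen after these values were seen, 261 of 349 had a lower mean, with a median log2 fold change of -0.11. Of them 51 were lower and 4 higher at an unadjusted p under 0.05, against 3.92% and 3.04% of all genes. The lower ones numbered 22 without KI 2, 22 without KI_WT 3, 31 without KI 1 and 27 with the GC correction described next.

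Direction followed base composition. Genes were ordered by the GC content of their transcripts (17298 of the tested genes had a value) and split into 5 equal bins. In the bin with the lowest GC the median log2 fold change was -0.11, with 11.8% of genes lower and 0.838% higher at an unadjusted p under 0.05. In the bin with the highest GC the median was 0.06, and the shares were 0.838% lower and 5.03% higher. Median GC content was 53.7% for the 528 higher genes at that level with a value and 42.6% for the 675 lower ones, against 49.7% over all genes. The 15 lower genes with the smallest p had a median GC content of 40.2% and the 15 higher ones 50.9%.

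This slope was not shared by all libraries of a group. From the lowest to the highest GC bin, the median deviation of genes from their mean over the 12 libraries went from -0.09 to 0.08 in KI 1 and from -0.09 to 0.07 in KI 2. KI 3 ran the other way, from 0.02 to -0.02. Among the wild types KI_WT 3 had the steepest slope, from 0.11 to -0.07, while KI_WT 1 went from 0.02 to -0.03 and KI_WT 2 from 0.01 to 0.03. With the slope of each library removed, 428 genes were higher and 475 lower at an unadjusted p under 0.05, and 0 passed an adjusted p of 0.05 by edgeR's test. Single genes were refitted in the same way, and those that changed sign are given at the end. The cause of the slope was not tested. In the knockout line the medians were 0.00 in the lowest bin and 0.03 in the highest, where the former is rounded from 0.0024.

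**Figure D3:**
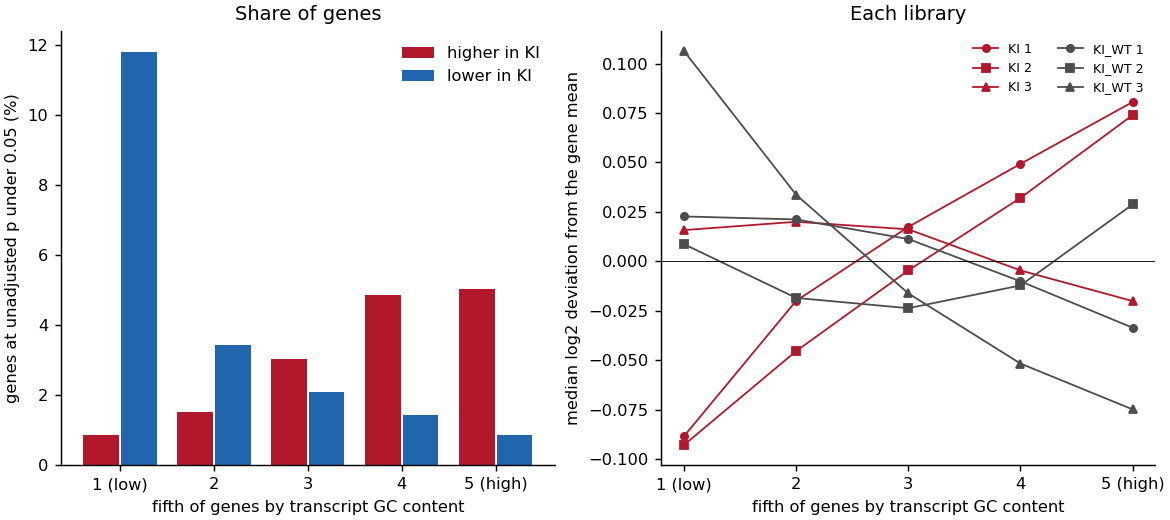
Left, the share of genes at an unadjusted p under 0.05, higher or lower in KI, in each of 5 bins of genes by transcript GC content. Right, the median log2 deviation from the gene mean in each KI (red) and KI_WT (grey) library; KI 1 and KI 2 climb from -0.09 to 0.08 and 0.07, and KI_WT 3 descends from 0.11 to -0.07.

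Of the 13 messenger RNAs encoded by the mitochondrial genome 10 had a lower mean in KI, all 7 abundant ones and 3 of the other 6. The mitochondrial genome encodes subunits of respiratory complexes I, III and IV and of ATP synthase. The 7 genes above a mean of 100 CPM (mt-Nd1, mt-Nd2, mt-Nd4, mt-Nd5, mt-Nd6, mt-Co1 and mt-Cytb; the level was set after the values were seen) had log2 fold changes from -0.87 to -0.55, and all 7 were at an unadjusted p under 0.05, against 3.92% of all genes; 0 of the other 6 were. Summed, they stood at 43840, 32704 and 49498 CPM in KI and at 66036, 78096 and 49893 CPM in KI_WT. The groups did not overlap in this sum, but KI 3 and KI_WT 3 were nearly level. Taken singly, 3 of the 13 mRNAs (mt-Co1, mt-Nd4 and mt-Nd6) had all KI libraries below all KI_WT libraries, against 5.87% of all genes. For the others, abundant ones included, the groups overlapped.

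mt-Co1, the catalytic subunit of cytochrome c oxidase, was at 19220, 15440 and 21440 CPM in KI and at 27900, 33420 and 22200 CPM in KI_WT (-0.57, SE 0.15). mt-Nd4 of complex I had the largest difference, with 2718, 1373 and 2802 CPM against 4482, 5107 and 2975 CPM (-0.87, SE 0.24). mt-Nd6, the 1 mRNA among them from the other strand, was at 167, 185 and 210 CPM against 285, 288 and 248 CPM (-0.55, SE 0.15). The 6 low-count genes mt-Nd3, mt-Nd4l, mt-Co2, mt-Co3, mt-Atp6 and mt-Atp8 ranged from -0.18 to 0.30. Mitochondrial sequences have near-identical copies in nuclear chromosomes, so their counts are uncertain. In the knockout line the 7 abundant genes had log2 fold changes from -0.15 to 0.10.

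Mitochondrial mRNAs took 4.44%, 3.48% and 4.95% of counts in KI and 6.43%, 7.63% and 5.06% in KI_WT; in the other line all 6 libraries lay between 6.13% and 6.63%. All 3 KI libraries lay below the other 9. The list has a median GC content of 37.1%; with the GC slope removed its median log2 fold change was -0.35 instead of -0.55 and 7 members were lower and 1 higher at an unadjusted p under 0.05 (8 lower and 5 higher means in all). With the levels of thalamus, choroid plexus and olfactory bulb markers as terms the median was -0.27 and 0 members reached that level. Thalamus levels were 0.39 to 0.94 in KI and -0.70 to -0.50 in KI_WT, so that fit also takes up part of the group difference. The labels give an RNA integrity number above 8.0 for the study and none per library; its part was not tested.

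Nuclear genes of the respiratory chain were split between higher and lower means. Of 37 complex I subunits 21 had a higher and 16 a lower mean (median 0.04), with Ndufb4 lowest in p at 17.3, 15.7 and 18.7 CPM in KI against 21.5, 29.7 and 20.1 in KI_WT (-0.46, SE 0.14). Of 39 subunits of complexes II to V 23 were higher and 16 lower (median 0.03). At an unadjusted p under 0.05 there were 5 lower genes (Atp5g2, Cox7b, Atp5c1, Cox7a2 and Uqcrc2) and 1 higher gene, Sdhc, against 3.92% and 3.04% of all genes. Without KI 2 there were 2 lower and 0 higher, and without KI 2 or KI_WT 1 the median was below 0. Factors of mitochondrial transcription and RNA handling had a median of -0.02; Lrpprc, which stabilises mitochondrial mRNAs, was at 92.3, 88.7 and 83.2 CPM in KI and 80.9, 72.5 and 78.0 CPM in KI_WT (0.19, SE 0.065). Glycolysis genes had 12 of 18 members higher and 0 at that level.

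Chaperones of the endoplasmic reticulum, which fold secreted and membrane proteins, were mostly higher in KI. Of 20 members 19 had a higher mean, 8 were higher and 0 lower at an unadjusted p under 0.05, and 9 had all KI libraries above all KI_WT libraries, against 3.04% and 6.32% of all genes. The median log2 fold change was 0.19, against -0.0054 over all genes and 0.03 for this list in the knockout line. The 8 are Hyou1, Pdia3, Calr, Dnajb11, Creld2, Sdf2l1, Hsp90b1 and Pdia6, each at an adjusted p of 0.705 by edgeR's test.

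Hyou1, a large chaperone of the lumen, was at 135, 108 and 100 CPM in KI and at 87.8, 75.1 and 97.5 CPM in KI_WT (0.40, SE 0.12). Calr, the calcium-binding lectin chaperone calreticulin, was at 384, 324 and 312 CPM against 273, 236 and 292.5 CPM (0.35, SE 0.12). Hspa5, the chaperone BiP and usual marker of a stressed reticulum, was at 420.5, 340.9 and 331 CPM against 268, 210 and 382 CPM (0.35, SE 0.23), so that KI_WT 3 lay above 2 KI libraries. Ddit3, induced in prolonged stress, was at 0.0023 and Dnajb9 at -0.03. KI_WT 2 was the lowest wild type in Hspa5 and in each of the 8; without it the list median was 0.16 and 2 members were at an unadjusted p under 0.05. With the regional marker terms the median was 0.13 and 0 members were. The thalamus term differs between KI and KI_WT, so that fit also takes up part of the group difference.

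Many of these genes are known targets of the unfolded protein response, so their promoters were searched for its element (CCAAT, any 9 bases, then CCACG) on both strands of the window from 250 bases before to 50 bases after the RefSeq start (300 bases, GRCm38.p6). Of the 18 list members with a window 8 held it (Hspa5, Hsp90b1, Pdia6, Calr, Canx, Creld2, Dnajc3 and Syvn1), against 0.119% of all 32851 windows. Such targets are many in the list by its choice, so the share holding the element says nothing of the knock-in. The median log2 fold change was 0.31 for the 8 with it and 0.14 for the 10 without it. Of the former 4 and of the latter 3 were at an unadjusted p under 0.05, a description of few genes. Hyou1 and Manf had no window. The 250 bases before the start of a pair of members at an unadjusted p under 0.05 are printed from RefSeq because they carry this shared element, marked by capitals. They are Pdia6 (chr12:17266339-17266588, plus strand) and Creld2 (chr15:88819396-88819645, plus strand), where the element lies on the strand opposite to the one printed.

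Pdia6: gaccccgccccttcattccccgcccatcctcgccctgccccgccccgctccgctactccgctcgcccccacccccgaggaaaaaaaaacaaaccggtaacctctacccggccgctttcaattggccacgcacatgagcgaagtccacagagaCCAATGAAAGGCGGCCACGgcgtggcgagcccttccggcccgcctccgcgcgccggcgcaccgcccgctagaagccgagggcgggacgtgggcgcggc
Creld2: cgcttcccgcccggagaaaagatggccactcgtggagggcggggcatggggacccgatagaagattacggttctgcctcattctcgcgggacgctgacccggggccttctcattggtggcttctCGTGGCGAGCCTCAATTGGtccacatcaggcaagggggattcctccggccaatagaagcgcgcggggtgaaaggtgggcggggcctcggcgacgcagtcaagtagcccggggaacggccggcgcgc

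Pdia6, a disulfide isomerase, was at 168, 143 and 139 CPM in KI and at 118, 108 and 133 CPM in KI_WT (0.33, SE 0.14). Creld2, a secreted stress-induced protein, was at 15.9, 15.9 and 14.1 CPM against 11.2, 9.90 and 13.6 CPM (0.40, SE 0.15). Both were higher in each KI library. Cytosolic heat shock genes, which answer misfolding outside the reticulum, had 19 of 24 members higher with a median of 0.12 and 0 at an unadjusted p under 0.05; without KI_WT 2 the median was 0.02. Proteasome subunits had a median of 0.01 and cytosolic ribosomal proteins of -0.02.

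Ion channel lists differed in their balance. The 13 tested genes of GABA-A receptors were all lower on average in KI (median -0.14), 2 of them at an unadjusted p under 0.05, against 3.92% of all genes. The list is poor in GC (median 42.2%), and with the GC slope removed 9 of 13 members were lower with a median of -0.09.

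Of 25 potassium and HCN channels 17 were lower (median -0.16), with 3 lower and 1 higher at an unadjusted p under 0.05, against 3.92% and 3.04% of all genes. Without KI_WT 1 the median was -0.04 and without KI 2 -0.06, with 1 lower member at that level in each, and in RPKM 14 of 25 were lower. Kcnb2, a delayed rectifier, was at 30.5, 29.5 and 35.8 CPM in KI and 43.7, 36.6 and 69.0 CPM in KI_WT (-0.64, SE 0.21), its highest value being that of KI_WT 3. Sodium channels had 3 higher and 6 lower members, 1 at that level in each direction: Scn1a, of fast-spiking interneurons, at -0.32 (SE 0.14) and Scn9a at 0.81 (SE 0.36). Calcium channels had 8 higher and 7 lower members, with Cacnb4 at -0.37 (SE 0.15) the 1 at that level. Among synaptic adhesion molecules 12 of 23 were lower, led by Cadm2 (-0.33, SE 0.10) and Nlgn1 (-0.17, SE 0.064). At that level 3 were lower, against 3.92% of all genes, and 0 were with the GC slope removed. Splicing regulators, poor in GC (median 44.9%), had 21 of 31 members lower, but 14 with the GC slope removed and 13 in RPKM. Nova1, a neuronal RNA-binding protein, was at 68.5, 69.9 and 70.5 CPM against 81.8, 102 and 80.9 CPM (-0.34, SE 0.095). Of 24 genes of vesicle release the synaptic vesicle protein Syp alone reached that level, at 0.20 (SE 0.079).

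Transcripts typical of thalamus separated the groups. All 13 markers had a higher mean in KI, 10 at an unadjusted p under 0.05, and in 11 the libraries did not overlap, against 3.04% and 6.32% of all genes. The median log2 fold change was 1.07. It was 0.51 in the knockout line, where the list level varied from -0.72 to 0.99 between libraries. In KI the list level was 0.94, 0.39 and 0.52 above the mean of the 12 libraries and in KI_WT 0.50, 0.70 and 0.53 below it.

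Prkcd, a protein kinase C of thalamic relay neurons, was at 103, 34.2 and 63.9 CPM in KI and at 17.2, 15.9 and 16.7 CPM in KI_WT (2.02, SE 0.71). Gbx2, a homeobox factor of developing thalamus, was at 2.12, 2.23 and 1.17 CPM against 0.259, 0.0917 and 0.358 CPM (2.94, SE 0.66). Slc17a6, which loads glutamate into vesicles in thalamic neurons, was at 93.1, 72.5 and 67.6 CPM against 46.5, 55.8 and 53.8 CPM (0.58, SE 0.20). All KI libraries were above all KI_WT libraries in each, and without KI 1 the markers at an unadjusted p under 0.05 numbered 5 instead of 10. In bulk tissue fewer cells of a type and less RNA per cell cannot be told apart, and the part of dissection was not tested. With the regional marker terms, which include the thalamus markers themselves, the list median was -0.04 and Prkcd was at -0.31.

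The largest folds among genes at 1 CPM or more whose KI and KI_WT libraries did not overlap include further ones of this kind; genes whose groups overlap, such as Pmch below, reached larger folds. Abhd12b, a lipase-like gene, was at 2.21, 2.34 and 2.89 CPM in KI and at 0.194, 0.306 and 0.179 CPM in KI_WT (3.43, SE 0.98). Shox2, a homeobox gene of thalamic neurons, was at 10.8, 8.50 and 8.38 CPM against 2.78, 1.96 and 0.986 CPM. Its log2 fold change of 2.27 had a wide error (SE 1.2) in the fit of all 12 libraries. By edgeR's test its unadjusted p was 0.0827 there and 7.18e-05 with the 6 libraries alone (adjusted p = 0.305). Tnnt1 (1.71) is in the thalamus list, and Fam19a4 (1.76), Frem3 (1.64) and Dio3, which inactivates thyroid hormone (1.53), complete the higher 8 together with Gbx2 and Prkcd. Among such genes the folds on the lower side were smaller, from Pkd2l2 at -0.90 through Prkag2os2 (-0.90), Zfp804b (-0.89) and mt-Nd4 (-0.87) to Hspb3 (-0.84), with 3 models known by a clone or provisional name.

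Other region markers varied between libraries of the same group. Hypothalamus markers had a median of 1.36, and Pmch, the melanin-concentrating hormone gene, was at 44.5, 28.1 and 0.701 CPM in KI and at 0.356, 1.47 and 1.52 CPM in KI_WT. Only KI 1 and KI 2 were high, and KI 3 lay among the wild types. Without KI 1 the list median was 0.46, the lowest when 1 library was left out. Olfactory bulb markers had a median of -1.33 with all libraries and 1.46 without KI_WT 3. Choroid plexus markers had 0.24 with all and -0.14 without it.

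**Figure D4:**
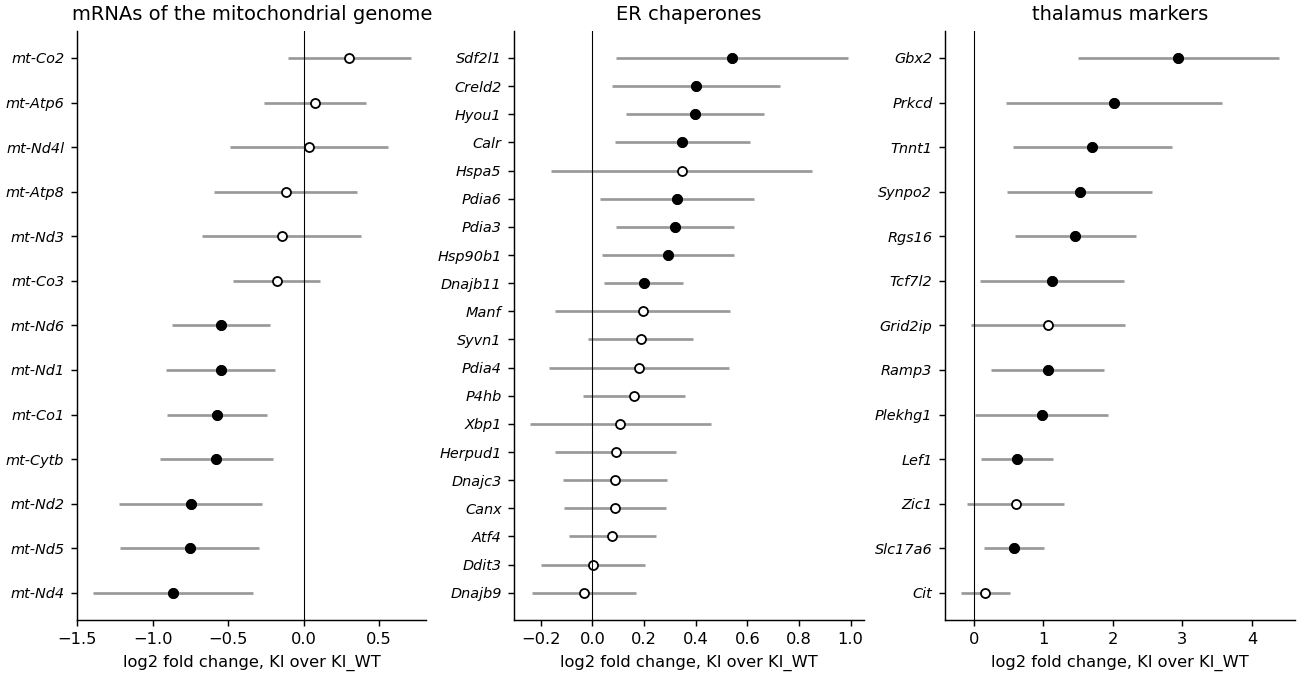
Log2 fold change of KI over KI_WT with its 95% interval for each member of the mitochondrial, endoplasmic reticulum (ER) chaperone and thalamus lists; filled points have an unadjusted p under 0.05. The filled points number 7, 8 and 10, and the axes differ in scale.

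Oligodendrocyte precursor markers were higher for 9 of 10 genes, with a median of 0.24 and 3 at an unadjusted p under 0.05, against 3.04% of all genes. The list is rich in GC (median 58.9%), and with the GC slope removed 7 of 10 were higher and 1 reached that level. Olig1, a transcription factor of the lineage, was at 122, 116 and 110 CPM in KI and at 95.9, 92.3 and 78.3 CPM in KI_WT (0.39, SE 0.098); the knockout line had -0.16. Vcan was the exception at -0.22. The list level did not overlap between the groups, at 0.038 to 0.142 in KI and -0.256 to 0.001 in KI_WT. Without KI_WT 3 the list median was 0.11 and 1 member was at that level, as was 1 without KI 1. Mature oligodendrocyte markers had a median of 0.08 with 0 at that level, and -0.05 without KI_WT 3.

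Markers of astrocytes, endothelium and mural cells had medians of 0.0045, -0.0070 and 0.0061, and those of interneurons and of upper- and deep-layer neurons -0.06, -0.12 and -0.08. Without KI_WT 3 the interneuron median was 0.15 and the deep-layer median 0.08, and without KI 1 or KI 3 the interneuron median was 0.02. Of interneuron markers 0 of 16 reached an unadjusted p under 0.05. Microglia markers were higher for 10 of 12 genes with a median of 0.07, and P2ry12, their purinergic receptor, was one of the lower ones (-0.38). Kcnh5, the layer 4 marker with the smallest p, had overlapping groups and a log2 fold change of -0.70 (SE 0.27).

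**Figure D5:**
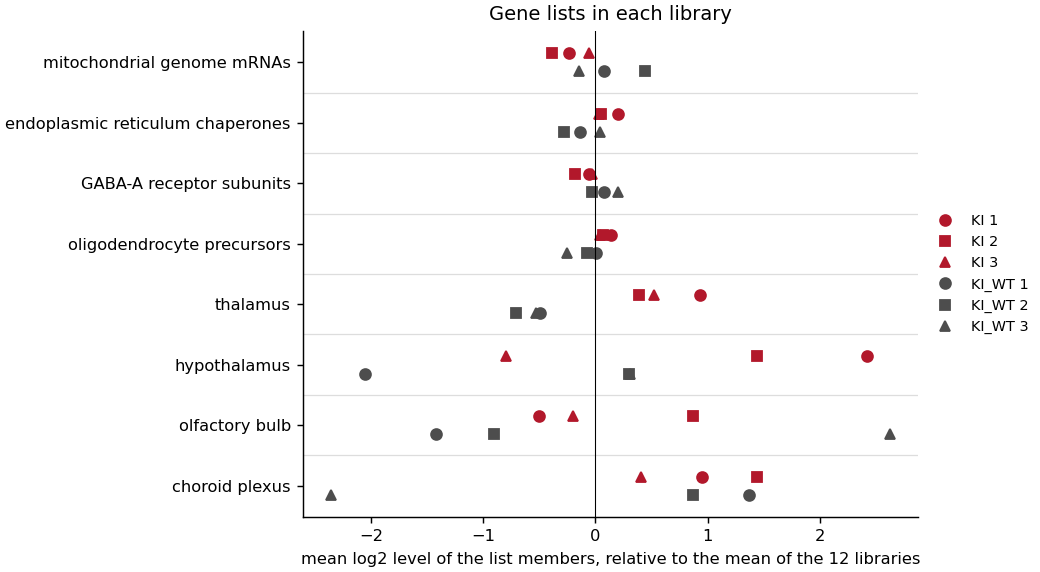
Mean log2 level of the members of 8 lists in each KI (red) and KI_WT (grey) library, relative to the mean of the 12 libraries. Thalamus separates the groups (0.39 to 0.94 against -0.70 to -0.50). Oligodendrocyte precursors do so by less (0.038 to 0.142 against -0.256 to 0.001). The mitochondrial and chaperone lists overlap through KI_WT 3, and the olfactory bulb value of KI_WT 3 is 2.62.

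Genes near Grin1 were examined because an edited line can differ from its wild types around the edited site. Of 180 annotated genes within 2 Mb on either side, 170 are in the count table and 91 were tested. Their log2 fold changes ranged from -0.51 to 0.47, 60 were higher and 31 lower, and 4 were higher and 2 lower at an unadjusted p under 0.05, shares near the 3.04% and 3.92% of all genes. Ssna1, a centrosomal and ciliary gene, was at 30.4, 38.3 and 34.3 CPM in KI against 27.3, 29.6 and 28.7 CPM in KI_WT (0.27, SE 0.088), and Man1b1, which trims mannose from misfolded glycoproteins, had 0.17 (SE 0.062). These genes are rich in GC (median 54.8%); with the GC slope removed 44 were higher and 47 lower, and without KI 2 0 reached that level in either direction.

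The knock-in effect was last set against the knockout effect, each measured against its own wild types, to ask whether always having and never having exon 5 differ in their effect. The difference passed an adjusted p of 0.05 for 1 of 17441 genes (0.00573%) in edgeR's test, and 918 were at an unadjusted p under 0.05. That gene was Tpp1, a lysosomal peptidase, at 80.0, 75.6 and 81.6 CPM in KI and 84.4, 78.3 and 84.1 CPM in KI_WT. Its log2 fold change was -0.06 (95% interval -0.19 to 0.08) in the knock-in line and -0.86 in the knockout line, a difference of 0.80 (SE 0.087; adjusted p = 0.0155, edgeR). Without KI 1, KI 3, KI_WT 1 or KI_WT 2, 0 genes passed that threshold. For Grin1 the difference was 0.08 (95% interval -0.23 to 0.39).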

How the data were processed

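Poly(A) RNA of adult mouse cortex was sequenced in 12 libraries (4 groups of 3). Per the submitters' processing notes, bcl2fastq 2.17, STAR 2.5.0c and Cufflinks 2.2.1 were used with GRCm38; which program counted reads, on which annotation and with what strandedness is not given in the sources used here, so reads of overlapping, antisense or near-identical genes may be shared. The authors deposited whole-number counts for 41388 genes and RPKM values of the same libraries; 0 columns were unassigned. Count over RPKM gave 1 length per gene in all libraries (median coefficient of variation 0.00215% over 8292 genes). Pairs of replicates varied more than counting noise allows (variance ratios 21.1 to 81.7), and each counts as 1 sample.

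Counts were filtered by filterByExpr (17441 genes), scaled by TMM and fitted with edgeR 4.0.16 (R 4.3.3) in 1 quasi-likelihood model of all 12 libraries with 1 mean per group (8 residual degrees of freedom; biological variation 15.7%); p-values were adjusted by Benjamini-Hochberg over all genes, threshold 0.05. The script was tested on simulated data. Alternatives were RLE scaling, DESeq2 1.42.0, no filter or a minimum of 1 CPM in 3 libraries, limma 3.58.1 (voom with quality weights, and RPKM on the log2 scale with a pseudocount of 0.1 or 1, keeping genes over 0.5 RPKM in 3 libraries), the 6 libraries alone, terms for regional markers or Y-linked genes, and leaving out each library. GC content is that of GENCODE M21 transcripts; its correction, a lowess offset per library (span 0.3), was chosen after seeing the data.

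The comparison and the 53 gene lists were chosen with earlier results of these data known. Genes named are Grin1, the 15 in each direction with the smallest p, the 8 in each direction with the largest fold (at least 1 CPM, groups apart), 2 with the smallest p from most lists, all NMDA receptor subunits and mitochondrial mRNAs; others were named after their values were seen. Models with a clone or provisional name are counted, not named. Some single genes of the lists are not reported here.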

Additional observations from a re-analysis of the deposited data

Results flagged for a closer look

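Tpp1 is listed because its effect differed between the lines: the KI effect minus the KO effect was 0.80 on the log2 scale (95% interval 0.61 to 0.99), in the only test of a difference past the threshold by edgeR (adjusted p = 0.0155). The 3 KI libraries (75.6 to 81.6 CPM) overlapped the 3 KI_WT libraries (78.3 to 84.4 CPM).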

How the results depend on the processing

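Genes past an adjusted p of 0.05 for KI against KI_WT numbered 0 by edgeR, 4 by DESeq2 and 1 with the 6 libraries alone; the cause was not tested. Genes at an unadjusted p under 0.05 ranged from 614 to 1645 when 1 library was left out (1214 with all). Tests of the KI effect minus the KO effect called 1 gene, 0 with regional marker terms, 0 with the Y-linked term, and 0 to 1 when 1 library was left out. The fold change of Grin1, near 0, changed sign in limma on log2(RPKM + 0.1), at 0.0127, and on log2(RPKM + 1), at 0.0123, and ranged from -0.0845 to 0.0016 when 1 library was left out. Its lowest value was -0.1139, with the GC correction (unadjusted p = 0.227, edgeR), and regional marker terms gave -0.0832. No paired analysis was possible because every animal has its own number in the labels and no number is shared between groups. With 3 animals a group, the median SE of a log2 fold change was 0.138, which limits what could be detected.

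Other single-gene log2 fold changes that changed sign, none past an adjusted p of 0.05, were as follows. With regional marker terms, which include thalamus, Shox2 was at -2.0246, Prkcd -0.3143, Grin2b -0.2004, Slc17a6 -0.0924, mt-Nd4l -0.0734, Dnajc3 -0.051, Fam19a4 -0.0335, mt-Co3 0.0255 and P2ry12 0.0483. With the Y-linked term Ddx3y was at 0.1823, Xist -0.0879 and Grin2c 0.0163. With voom Grin2b was at -0.0556, Grin2c 0.0053 and Dnajb9 0.0165. On log2(RPKM + 0.1) and log2(RPKM + 1), Grin2c was at 0.0038 and 0.0031, and Dnajb9 at 0.0235 and 0.0225. With the GC correction Dnajb9 was at 0.0802, mt-Atp8 0.123 and mt-Nd3 0.0719. Ddit3 was at -5e-04 with RLE size factors and -8e-04 with DESeq2. When 1 library was left out, Grin2a ranged from -0.3714 to 0.1165, Grin2b from -0.0262 to 0.2754, Grin2c from -0.1129 to 0.0089, Ddit3 from -0.0433 to 0.0504, Dnajb9 from -0.0738 to 0.0585, mt-Atp6 from -0.0156 to 0.2614, mt-Atp8 from -0.2591 to 0.1168, mt-Nd3 from -0.2891 to 0.1608 and mt-Nd4l from -0.1299 to 0.2321. The cause was not tested.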
